A study of Mus musculus with 16 samples.

Results

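Kidneys of mice given FAN were compared with kidneys of mice given vehicle, all under time-restricted feeding. The comparison was defined by the labels and the column names of the deposited count table, not by any measured value. It uses 8 of the 16 libraries of the study, 4 from the FAN group and 4 from the vehicle group, and all 17731 genes that passed a filter on low counts, of 52338 genes in the table. The study as a whole sequenced whole-kidney RNA of mice labelled C57BL6 on a high-fat diet, given FAN or vehicle, with the diet offered ad libitum (labelled adlib) or under time-restricted feeding (labelled TRF). RNA was taken 15 days after treatment. The high-fat diet was therefore shared by every group, the vehicle group included. What FAN stands for is not written out in the labels; the columns that hold these libraries include the word folic in their names. Dose, sex, age and feeding hours are not given in the sources used here, and nothing says whether each library came from a separate animal, so p-values measure the spread between these samples. Vehicle libraries are named by their titles, vehicle 1 to 4. The numbers in the FAN columns match those of the FAN titles only in part (6 is the number found in both under time-restricted feeding), so each FAN column was assigned to its group only and is called by its column number, FAN 6, 10, 11 and 12.

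In whole-kidney RNA, fewer cells of a type and less RNA per cell cannot be told apart, and the same holds for more cells and more RNA per cell. Folic acid given in excess is a standard way to injure the renal tubule in mice. An injured tubule is known to lose transporters and enzymes of the mature proximal tubule, to express injury genes, and to release chemokines that draw in leukocytes. Fibroblasts and pericytes then lay down collagen, and some epithelial cells re-enter the cell cycle. Feeding confined to part of the day is known as a timing cue for the clock genes of peripheral organs. Core clock activators (Arntl, Clock, Npas2) drive their own repressors (the Per and Cry genes) and output genes such as Dbp and Tef through the E-box.

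Library totals ranged from 12450812 to 28255417 counts in the FAN group and from 14124323 to 31699747 in the vehicle group. Levels are counts-per-million values (CPM) scaled by the trimmed mean of M-values (TMM), given below in the order FAN 6, 10, 11, 12 and vehicle 1, 2, 3, 4. On this scale 3 counts, the most that a listed 0 allows, came to between 0.106 and 0.279 CPM in these 8 libraries, which covers counting error only. On the first principal component, which held 65.56% of the variance of all 16 libraries, FAN 12 lay at -18.5, the other FAN libraries between -57.6 and -47.7, and the vehicle libraries between 72.9 and 85.1. FAN 12 also had the smallest median change in 35 of the 57 gene lists described below, and it had the lowest count total. Mitochondrial transcripts took 21.4% to 26.7% of counts after FAN and 18.03% to 20.9% after vehicle, so these groups did not overlap. The column names also carry a running number, called the sheet position here, which falls in 3 ranges. FAN 6 and vehicle 1 and 2 lie in the earliest range, vehicle 3 and 4 in the next, and FAN 10, 11 and 12 in the last. What this number stands for is not stated. The part of sheet position in the results was not tested apart from 2 fits with it as a covariate and 1 fit of the earliest range alone. That range holds 1 FAN and 2 vehicle libraries of this comparison. The next range holds only vehicle and the last only FAN libraries, ad libitum libraries included, so FAN and sheet position cannot be told apart there. Only the earliest range links FAN to vehicle in the fit with 3 ranges.

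FAN changed 7719 genes under time-restricted feeding at a Benjamini-Hochberg adjusted p under 0.05 in edgeR's quasi-likelihood test, 4349 higher and 3370 lower, which is 43.5% of the genes tested (24.5% higher and 19.0% lower). The median log2 change of all genes was 0.05. Rises were the larger changes: 1230 genes rose and 93 fell by at least 2 on the log2 scale. The FAN and vehicle libraries did not overlap for 7148 genes, 40.3% of those tested. With sheet position in 3 ranges in the model, 4974 genes were called, 3025 higher and 1949 lower. Scaling to library size alone gave 5055 higher and 2465 lower and shifted the median of all genes from 0.052 to 0.155. In the lists below, "rose" and "fell" mean past the adjusted p of 0.05. The share of all genes given above is the background against which a count is to be read. The lists were chosen with earlier results of these data known, so a count above that share is not independent of the data. List counts cover only members that passed the filter on low counts. A gene low in a group can pass it through another group where it is high, which can largely set its direction.

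Among the largest rises was Gxylt2, a xylosyltransferase of the Notch glycosylation pathway, at 16.4, 19.8, 22.2 and 9.199 CPM after FAN and 0.381, 0.532, 0.225 and 0.652 CPM after vehicle (log2 change 5.29, SE 0.34, adjusted p = 5.92e-09). Fcrls and Ms4a7, both known from macrophages, rose by 5.84 and 5.33 on the log2 scale (adjusted p = 5.24e-07 and 1.51e-07 in edgeR). Fcrls stood at 0, 0.532, 0.135 and 0 CPM after vehicle, at or under the CPM of 3 counts in all but vehicle 2, so the size of its change is uncertain. The genes of this paragraph were picked among those with groups that did not overlap, so their separation follows from the choice. FAN 12 was the lowest of the FAN group for each of these 3 risen genes. Among the largest falls, Ldc1 went from 114, 131, 107 and 117 CPM after vehicle to 32.6, 15.2, 11.04 and 28.5 CPM after FAN (log2 change -2.43, SE 0.32, adjusted p = 1.29e-05). Srd5a2, a steroid 5-alpha-reductase, stood at 6.42, 4.29, 3.22 and 7.43 CPM after FAN against 26.5, 13.1, 9.49 and 51.1 CPM after vehicle (log2 change -2.24, SE 0.41, adjusted p = 3.37e-04), a group in which vehicle 4 was the highest. Gstm1, a glutathione transferase, fell by 4.91-fold, from 449 to 1087 CPM to 101.6 to 196 CPM (adjusted p = 2.16e-04, edgeR).

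**Figure D1:**
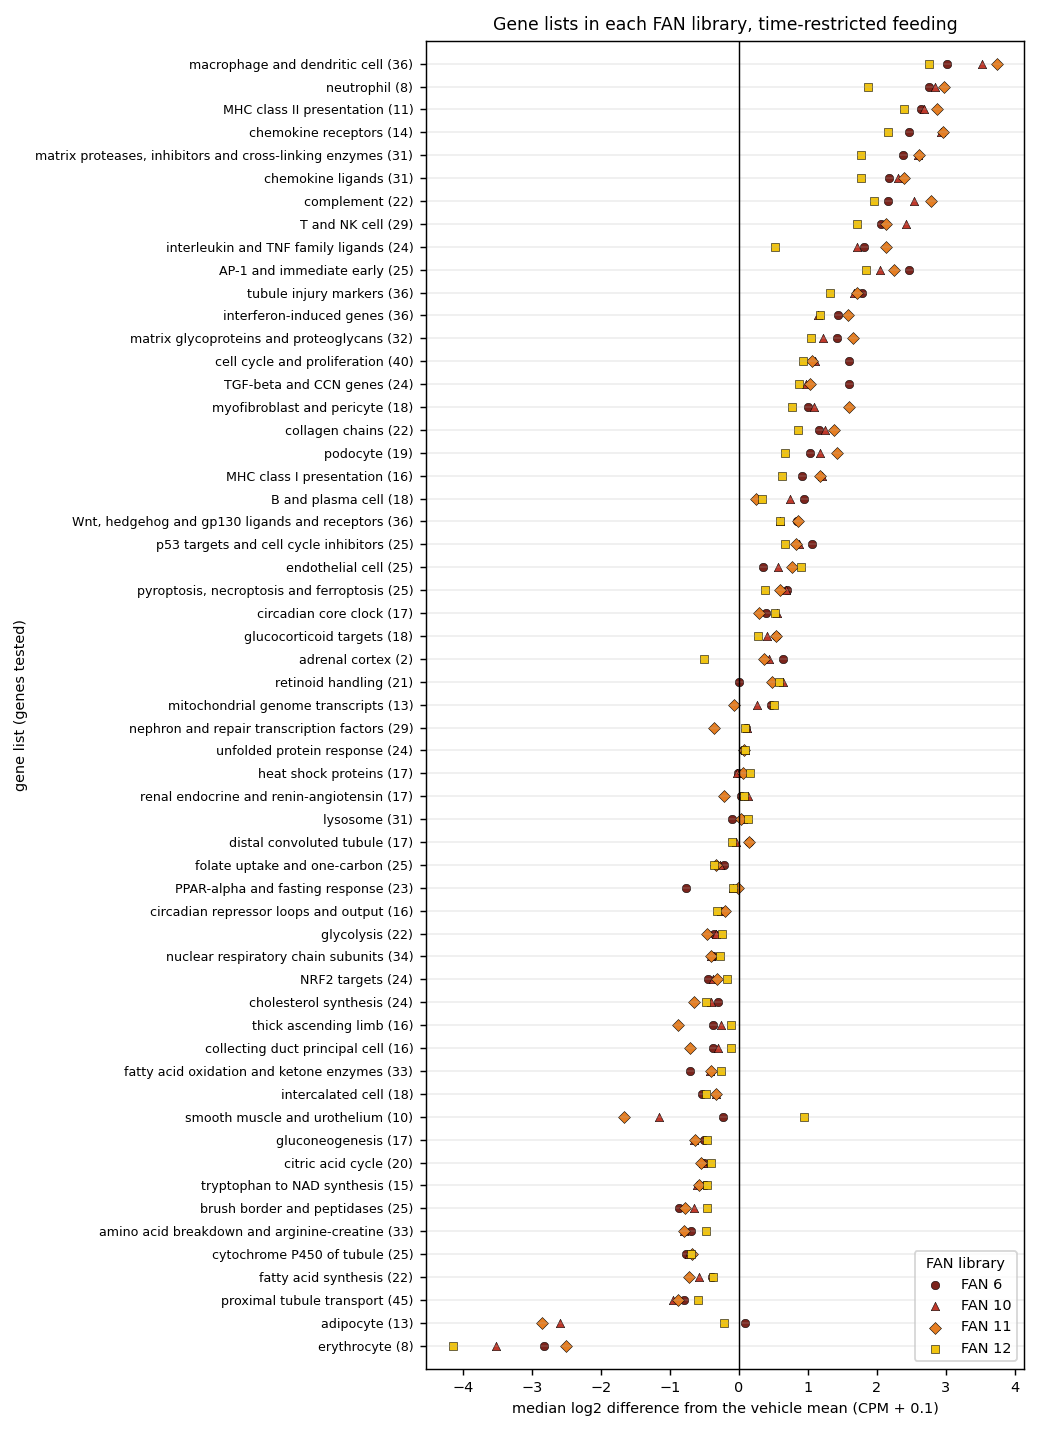
Median log2 difference of each gene list from the vehicle mean, drawn as 1 point for each FAN library under time-restricted feeding (horizontal axis, log2 of CPM plus 0.1; lists on the vertical axis). Immune and matrix lists lie to the right of 0 and proximal tubule and metabolic lists to the left, apart from the mitochondrial genome transcripts (0.46, 0.26, -0.07 and 0.50 in FAN 6, 10, 11 and 12), with FAN 12 nearest to 0 in 35 of the 57 lists.

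Genes of the injured tubule rose together. Of 36 injury markers tested, 30 rose and none fell, with a median log2 change of 1.57, and 25 had groups that did not overlap. In the earliest sheet range alone, 18 rose. Sox9, the transcription factor that marks regenerating tubule cells (chr11:112782224-112787760 in GRCm38), stood at 23.7, 17.3, 15.4 and 5.204 CPM after FAN and at 0.466, 0.177, 0.2699 and 0.407 CPM after vehicle. This is a 48.4-fold difference (log2 change 5.6, SE 0.49, adjusted p = 1.64e-07), and FAN 12 carried less than any other FAN library. Prom1, a membrane glycoprotein of injured and progenitor-like tubule cells, was at 144, 115, 107 and 92.6 CPM against 33.9, 32.04, 43.3 and 40.4 CPM (log2 change 1.62, SE 0.15, adjusted p = 1.92e-07). Cdh6, a cadherin of the developing proximal tubule, was at 23.04, 21.9, 21.8 and 12.1 CPM against 2.75, 5.53, 3.96 and 4.64 CPM (log2 change 2.23, SE 0.23, adjusted p = 5.89e-07). The most abundant of these transcripts by read count, Spp1 (osteopontin, a secreted phosphoprotein), reached 9288, 11463, 9564 and 4923 CPM after FAN from 523, 772, 598 and 745 CPM (log2 change 3.74, SE 0.27, adjusted p = 1.43e-08). The order of the FAN libraries was the same at its low end for these 4 genes, with FAN 12 the lowest.

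Extracellular matrix genes followed. Of 22 collagen chains, 15 rose and 2 fell (median 1.08), and of 32 matrix glycoproteins and proteoglycans, 23 rose and 3 fell (median 1.27). Col3a1, the chain of fibrillar type III collagen, stood at 522, 344, 499 and 232 CPM after FAN and 13.7, 24.03, 12.9 and 14.3 CPM after vehicle (log2 change 4.62, SE 0.34, adjusted p = 2.59e-08). Col14a1, which binds to fibril surfaces, showed a narrower spread between FAN libraries, at 38.4, 41.4, 43.2 and 35.7 CPM against 19.3, 12.1, 13.6 and 10.3 CPM (log2 change 1.52, SE 0.18, adjusted p = 2.61e-06). Col1a1 varied more, at 55.1, 42.3, 79.3 and 19.8 CPM against 8.002, 15.1, 7.51 and 7.17 CPM (log2 change 2.37, SE 0.54, adjusted p = 0.00268). FAN 11 held the highest Col1a1 and FAN 12 the lowest, still above every vehicle library. The glycoprotein Tnc showed the same order, at 87.7, 54.8, 143 and 28.8 CPM against 5.46, 12.4, 13.8 and 16.5 CPM (log2 change 2.72, SE 0.48, adjusted p = 3.74e-04). Fbn1, the core of microfibrils, stood at 35.3, 26.2, 37.9 and 19.5 CPM against 4.74, 5.46, 4.09 and 3.99 CPM (log2 change 2.7, SE 0.29, adjusted p = 1.41e-06).

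Among 31 matrix proteases, their inhibitors and cross-linking enzymes, 25 rose and none fell (median 2.72). Mmp12, the macrophage elastase, was even across the FAN libraries at 25.7, 28.6, 22.9 and 21.9 CPM, against 2.16, 0.7798, 1.08 and 1.38 CPM after vehicle (log2 change 4.21, SE 0.34, adjusted p = 7.09e-08). The gelatinase Mmp2 stood at 17.4, 19.1, 35.3 and 8.73 CPM against 2.498, 1.98, 2.88 and 1.63 CPM (log2 change 3.15, SE 0.47, adjusted p = 7.21e-05). Groups did not overlap for these 2 genes.

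Ligands of the TGF-beta family rose, and 1 member of the list fell. Of 24 TGF-beta and CCN genes, 16 rose and 1 fell (median 1.17). Tgfb2 stood at 11.2, 9.67, 12.2 and 6.69 CPM after FAN and 0.847, 0.957, 0.8096 and 1.06 CPM after vehicle (log2 change 3.46, SE 0.28, adjusted p = 5.79e-08), while Tgfb1 rose by 1.76 on the log2 scale (adjusted p = 4.74e-04, edgeR). Inhba, the activin A subunit, spread from 1.12 to 8.79 CPM within the FAN group, with FAN 12 the lowest (log2 change 4.41, SE 0.53, adjusted p = 4.71e-06). Grem1, a secreted antagonist of bone morphogenetic proteins, was at 7.16, 8.005, 13.5 and 5.297 CPM after FAN and at 0.127, 0.0709, 0.04498 and 0 CPM after vehicle, where each value was at or under the CPM of 3 counts. Bmp7, a bone morphogenetic protein of the healthy tubule (chr2:172868012-172940321), was the member that fell, at 17.3, 15.8, 17.7 and 17.7 CPM after FAN against 43.4, 39.4, 38.6 and 36.3 CPM (log2 change -1.21, SE 0.18, adjusted p = 3.95e-05). The FAN libraries lay close together for Bmp7 and well below the vehicle range.

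Of 18 myofibroblast and pericyte genes, 13 rose and none fell (median 1.12), and 7 rose in the earliest sheet range alone. Pdgfb, a growth factor for pericytes, stood at 32.6, 34.3, 46.1 and 20.3 CPM against 7.54, 10.9, 8.14 and 7.09 CPM (log2 change 1.98, SE 0.23, adjusted p = 3.44e-06), and its receptor Pdgfrb at 44.9, 44.2, 82.1 and 40.2 CPM against 16.2, 21.2, 24.6 and 18.7 CPM (log2 change 1.39, SE 0.25, adjusted p = 2.60e-04). Fap, a protease of activated fibroblasts, was lower in counts but separated the groups, at 1.39 to 3.301 CPM after FAN and 0.225 to 0.931 CPM after vehicle (log2 change 1.77, SE 0.34, adjusted p = 3.69e-04). Acta2, the smooth muscle actin that is the customary myofibroblast marker, did not pass the test, at 28.2, 18.9, 39.4 and 24.5 CPM after FAN and 37.2, 62.7, 29.9 and 21.7 CPM after vehicle (log2 change -0.45, SE 0.32, adjusted p = 0.268). Vessel smooth muscle also expresses Acta2, and Myh11, the myosin heavy chain of mature smooth muscle, fell from 21.9 to 47.6 CPM to 8.46 to 21.8 CPM (log2 change -1.21, SE 0.33, adjusted p = 0.00724). The part of smooth muscle in the Acta2 value was not tested.

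**Figure D2:**
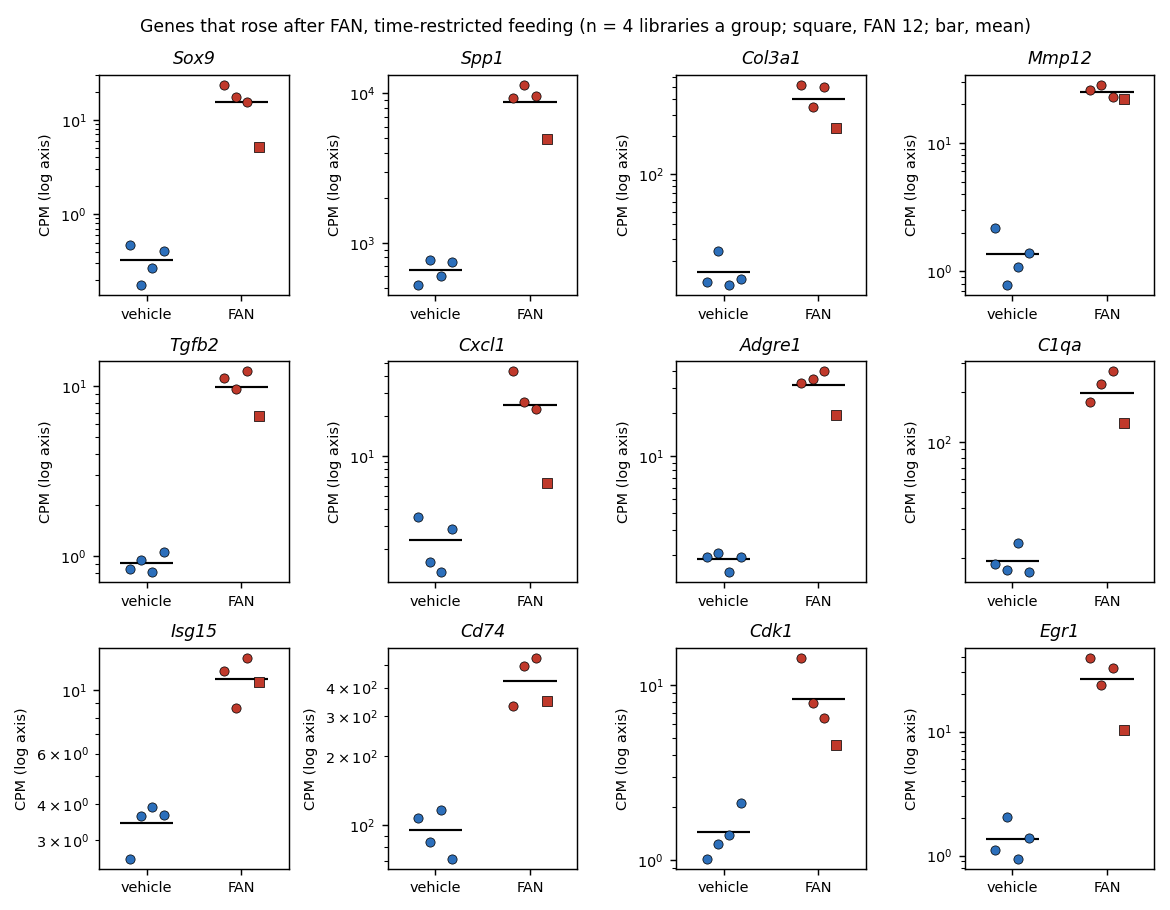
CPM (log axis) of 12 genes that rose after FAN under time-restricted feeding, 1 panel for each gene, with the 4 FAN and 4 vehicle libraries as points and the group means as bars. In each panel the lowest FAN point lies above the highest vehicle point, which the choice of risen genes favours. FAN 12, drawn as a square, is the lowest of its group in 10 of the 12 panels.

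Chemokine genes rose widely. Of 31 ligands tested, 23 rose and 1 fell (median 2.56). Of 21 receptors listed, 14 passed the filter on low counts, and of these 11 rose and none fell (median 2.89). Cxcl1 and Cxcl2, ligands that attract neutrophils, lie next to each other on chromosome 5 and both carry the kappaB motif that was searched on both strands shortly before the start of the gene. The 150 bases before each start are shown with that motif in capitals, on the strand of the gene, from RefSeq on GRCm38.p6, at chr5:90891095-90891244 and chr5:90903749-90903898 (both on the plus strand).
Cxcl1: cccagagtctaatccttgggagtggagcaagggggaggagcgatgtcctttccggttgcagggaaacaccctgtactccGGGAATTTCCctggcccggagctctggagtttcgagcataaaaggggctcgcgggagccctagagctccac
Cxcl2: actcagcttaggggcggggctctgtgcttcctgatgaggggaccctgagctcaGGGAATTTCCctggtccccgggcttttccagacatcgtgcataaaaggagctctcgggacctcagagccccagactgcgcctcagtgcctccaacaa
Within 250 bases before the start, 3 of the 22 chemokine ligands with a RefSeq window held this motif (13.6%), against 0.104% of all genes with a window. The third was Cxcl3, and all 3 rose, in a list of which 23 of 31 rose. Cxcl1 stood at 43.2, 25.5, 22.6 and 6.23 CPM after FAN and 3.51, 1.59, 1.35 and 2.85 CPM after vehicle (log2 change 3.42, SE 0.53, adjusted p = 1.14e-04), and Cxcl2 at 7.04, 7.61, 6.13 and 1.58 CPM against 0.127, 0.213, 0.1799 and 0 CPM (log2 change 5.23, SE 0.55, adjusted p = 8.70e-07). FAN 12 was the lowest FAN library for both, and for Cxcl1 it came closest to the vehicle group. Ligands of monocytes and lymphocytes rose as well. Ccl9 stood at 58.4, 78.5, 79.8 and 37.7 CPM against 2.12, 1.06, 1.62 and 0.5703 CPM (log2 change 5.51, SE 0.41, adjusted p = 5.50e-08), Ccl8 rose by 3.67 and Cxcl10, a ligand induced by interferon, by 1.67 on the log2 scale (adjusted p = 9.82e-05 and 0.00128, edgeR).

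Leukocyte genes rose, those of macrophages and dendritic cells with the highest list median of the cell types examined. Of 36 macrophage and dendritic cell genes, 34 rose and none fell, with a median log2 change of 3.38, and their summed level was 1462 to 2868 CPM after FAN against 190 to 266 CPM after vehicle. Adgre1, which encodes F4/80, stood at 32.8, 34.7, 39.5 and 19.6 CPM after FAN and 1.95, 2.09, 1.53 and 1.96 CPM after vehicle (log2 change 4.08, SE 0.26, adjusted p = 6.73e-09). C1qa, a complement chain made by tissue macrophages, stood at 173, 224, 266 and 129.5 CPM against 18.5, 16.9, 24.6 and 16.5 CPM (log2 change 3.37, SE 0.25, adjusted p = 2.40e-08). Trem2, a lipid receptor of macrophages in injured tissue, rose 10.5-fold (adjusted p = 1.01e-06, edgeR). Xcr1 and Clec9a, which mark the dendritic cells that cross-present antigen, stood at 1.95 to 3.28 and 8.55 to 10.4 CPM after FAN against 0.177 to 0.7198 and 1.701 to 2.92 CPM after vehicle (log2 changes 2.85 and 1.95, adjusted p = 1.90e-04 and 5.94e-06 in edgeR). Csf1, the growth factor of macrophages, stood at 20.9, 21.9, 21.1 and 12.4 CPM against 4.6998, 4.71, 5.85 and 4.48 CPM (log2 change 1.95, SE 0.26, adjusted p = 1.35e-05).

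Of 29 T and NK cell genes, 26 rose and none fell (median 2.37). The coreceptor Cd8a was even within the FAN group, at 3.42, 3.37, 3.46 and 3.07 CPM against 1.48, 0.567, 0.675 and 0.896 CPM (log2 change 1.88, SE 0.29, adjusted p = 4.30e-05). Cd4 was spread more widely, at 2.996, 6.39, 4.36 and 1.58 CPM against 0.254, 0.815, 0.7197 and 0.5703 CPM (log2 change 2.7, SE 0.48, adjusted p = 1.97e-04), and is also carried by some macrophages and dendritic cells. Of 14 neutrophil genes listed, 8 passed the filter on low counts, and of these 6 rose and none fell (median 3.01). Levels were low, and the filter can favour a rise in such genes, as said above. The summed level of all 14 was 15.7 to 24.4 CPM after FAN and 7.88 to 11.1 CPM after vehicle. S100a8, a calcium-binding protein of neutrophils, stood at 3.66, 2.27, 3.69 and 0.836 CPM against 0.212, 0.248, 0.225 and 0 CPM (log2 change 3.78, SE 0.59, adjusted p = 5.60e-05). B and plasma cell genes gave the fewest calls among the leukocyte lists, with 3 of 18 risen (16.7% of the list, against 43.5% of all genes called in either direction) and none fallen. Their count was 6 without vehicle 2 and 8 risen with 1 fallen in limma.

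Interferon-induced genes rose almost without exception. Of 36 tested, 34 rose and none fell, with a median of 1.43, and 32 had groups that did not overlap. The interferon-element (TTTC, any 2 bases, TTTC) was searched on both strands in the 250 bases before the start. Of the 28 listed genes with a RefSeq window, 15 held it (53.6%), against 3.46% of all genes with a window. In the whole list 34 of 36 rose, and of the 15 with the motif 14 rose. 4 of them are shown because their motif lies within 150 bases of the start, as read on the strand of the gene with the motif in capitals. They lie at chr4:156200819-156200968 (minus strand), chr19:34640739-34640888 (plus), chr3:142620513-142620662 (plus) and chr11:48871421-48871570 (minus).
Isg15: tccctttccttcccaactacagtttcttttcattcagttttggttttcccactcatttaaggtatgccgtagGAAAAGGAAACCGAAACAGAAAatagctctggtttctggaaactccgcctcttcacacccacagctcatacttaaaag
Ifit1: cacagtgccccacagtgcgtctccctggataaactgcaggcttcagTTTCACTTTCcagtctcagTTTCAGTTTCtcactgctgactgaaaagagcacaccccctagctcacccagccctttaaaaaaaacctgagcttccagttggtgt
Gbp2: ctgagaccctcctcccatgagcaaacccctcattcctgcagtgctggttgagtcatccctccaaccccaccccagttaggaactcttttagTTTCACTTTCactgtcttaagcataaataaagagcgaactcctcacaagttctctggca
Irgm1: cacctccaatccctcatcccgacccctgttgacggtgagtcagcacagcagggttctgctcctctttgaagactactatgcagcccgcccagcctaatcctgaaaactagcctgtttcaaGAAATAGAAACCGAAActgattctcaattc
In Isg15 and Irgm1 the capitals read GAAA, any 2 bases, GAAA, the same element on the other strand, in overlapping copies. Isg15, a ubiquitin-like modifier, stood at 11.6, 8.66, 12.9 and 10.7 CPM after FAN and 2.58, 3.65, 3.91 and 3.67 CPM after vehicle (log2 change 1.67, SE 0.18, adjusted p = 1.07e-06). Ifit1, which binds viral RNA, stood at 30.1, 19.9, 32.2 and 19.7 CPM against 6.097, 7.16, 6.79 and 8.39 CPM (log2 change 1.85, SE 0.22, adjusted p = 3.61e-06). Irgm1, an immunity-related GTPase, changed less but with little spread, at 72.2, 64.04, 64.6 and 58.3 CPM against 37.9, 35.1, 39.04 and 40.6 CPM (log2 change 0.77, SE 0.10, adjusted p = 7.91e-06). Gbp2, a guanylate-binding protein, was at 42.8 to 55.8 CPM against 7.66 to 11.4 CPM. For Isg15, FAN 12 lay within the range of the other FAN libraries. For Ifit1, Irgm1 and Gbp2 it was the lowest of its group, as for Cxcl1 and Cxcl2. Irf7, the factor that amplifies the type I interferon response, rose by 1.45 on the log2 scale (adjusted p = 4.33e-06, edgeR).

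Antigen presentation rose on both arms. All 11 MHC class II genes tested rose (median 2.93). Cd74, the invariant chain, stood at 331, 495, 537 and 348 CPM after FAN and 108, 84.9, 116 and 71.4 CPM after vehicle (log2 change 2.17, SE 0.29, adjusted p = 1.26e-05), and Ciita, the transactivator of the class II genes, at 13.3, 17.2, 19.6 and 14.1 CPM against 3.47, 2.59, 2.56 and 1.96 CPM (log2 change 2.59, SE 0.24, adjusted p = 1.99e-07). Of 16 class I genes, 13 rose and 2 fell (median 0.95). B2m, the light chain of class I, stood at 924, 1007, 926 and 598 CPM against 321, 312, 294 and 319 CPM (log2 change 1.47, SE 0.18, adjusted p = 4.47e-06), and Nlrc5, the transactivator of class I, rose 3.66-fold (adjusted p = 1.03e-05, edgeR). Genes of the H2 family share sequence, so the values of single class I heavy chains are uncertain.

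Of 22 complement genes, 18 rose and 1 fell (median 2.47). C4b stood at 22.8, 23.1, 36.1 and 19.05 CPM against 5.63, 7.41, 5.26 and 3.42 CPM (log2 change 2.2, SE 0.24, adjusted p = 1.11e-06). Of 24 interleukin and TNF family ligands, 16 rose and 1 fell (median 2.35), or 10 and 1 when the 8 libraries of the comparison were fitted alone. Il33, an alarmin released by damaged cells, stood at 49.2, 43.04, 67.7 and 22.6 CPM against 4.36, 3.37, 4.05 and 5.05 CPM (log2 change 3.46, SE 0.26, adjusted p = 3.01e-08). Il1b reached its highest level in FAN 11, at 5.06, 7.09, 15.01 and 3.16 CPM against 0.381, 1.099, 0.5397 and 0.733 CPM (log2 change 3.46, SE 0.46, adjusted p = 1.28e-05), and its antagonist Il1rn rose by 4.85 on the log2 scale (adjusted p = 3.23e-06, edgeR). Tnf was low throughout, at 1.595, 1.79, 2.36 and 0.743 CPM after FAN and 0.0423, 0.177, 0.1799 and 0 CPM after vehicle (log2 change 3.83, SE 0.52, adjusted p = 1.34e-05), with vehicle 4 at 0.

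Genes of the cell cycle rose too. Of 40 tested, 28 rose and none fell (median 1.26), and the largest of the median changes was in FAN 6 (1.60 on the log2 scale, with 0.93 to 1.10 in the other FAN libraries). Cdk1, the kinase that starts mitosis, stood at 14.3, 7.96, 6.52 and 4.55 CPM after FAN and 1.02, 1.24, 1.39 and 2.12 CPM after vehicle (log2 change 2.58, SE 0.35, adjusted p = 1.49e-05), and Top2a at 23.7, 13.1, 12.6 and 9.39 CPM against 1.69, 1.63, 2.16 and 2.28 CPM (log2 change 2.95, SE 0.27, adjusted p = 1.80e-07). FAN 6 was the highest and FAN 12 the lowest for both. Within 250 bases before the start, 26 of the 32 genes with a window held the CCAAT motif on either strand (81.2%). Among all genes, 37.5% held it. Of the 26, 20 rose, beside 28 of 40 in the whole list. The promoter of Ccnb2, the cyclin partner of Cdk1, is shown because it held 3 copies in 150 bases, in capitals on the strand of the gene (minus strand, chr9:70421555-70421704).
Ccnb2: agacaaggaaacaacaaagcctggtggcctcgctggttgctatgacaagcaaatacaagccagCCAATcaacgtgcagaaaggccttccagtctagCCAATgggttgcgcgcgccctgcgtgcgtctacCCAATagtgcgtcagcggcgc
Ccnb2 stood at 9.73, 3.32, 3.104 and 3.35 CPM after FAN and 0.677, 1.03, 1.35 and 0.326 CPM after vehicle (log2 change 2.48, SE 0.40, adjusted p = 7.61e-05). FAN 6 was well above the other FAN libraries, which lay close together.

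Inhibitors of the cycle rose beside it. Of 25 p53 targets and cell cycle inhibitors, 16 rose and 1 fell (median 0.69). Cdkn1a, which encodes p21, stood at 13.7, 16.2, 18.6 and 11.2 CPM against 1.99, 5.03, 5.13 and 2.69 CPM (log2 change 1.99, SE 0.30, adjusted p = 4.70e-05). Cdkn1b and Cdkn1c, which encode p27 and p57, rose by 0.66 and 1.2 on the log2 scale (adjusted p = 0.00149 and 3.50e-04, edgeR). Sesn1, a stress-inducible sestrin, was even in both groups, at 26.9, 29.05, 28.02 and 27.4 CPM against 13.9, 16.8, 16.3 and 16.2 CPM (log2 change 0.82, SE 0.13, adjusted p = 8.40e-05). Among 25 genes of pyroptosis, necroptosis and ferroptosis, 14 rose and 1 fell (median 0.56). The inflammatory caspase Casp1 stood at 8.13, 9.49, 8.802 and 6.69 CPM against 0.931, 1.28, 1.48 and 1.79 CPM (log2 change 2.62, SE 0.27, adjusted p = 7.44e-07), and the sensor Nlrp3 rose by 3.44 from a vehicle level near the CPM of 3 counts (adjusted p = 3.44e-05, edgeR). The member that fell was Aifm2, which protects membranes from ferroptosis, at 15.1, 16.7, 17.1 and 17.7 CPM against 31.2, 36.01, 29.9 and 29.3 CPM (log2 change -0.93, SE 0.13, adjusted p = 2.33e-05).

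Immediate early genes were high 15 days after FAN. Of 25 AP-1 and immediate early genes, 22 rose and none fell (median 2.32). Egr1 stood at 38.95, 23.6, 32.6 and 10.3 CPM against 1.101, 2.06, 0.945 and 1.38 CPM (log2 change 4.25, SE 0.49, adjusted p = 6.13e-06), and Fos at 5.29, 4.72, 5.38 and 1.95 CPM against 0.339, 0.709, 0.585 and 0.0815 CPM (log2 change 3.23, SE 0.38, adjusted p = 2.91e-06). Klf4, a zinc finger factor, showed no such spread within the FAN group, at 16.2, 16.6, 13.9 and 14.3 CPM against 3.68, 3.37, 4.99 and 3.83 CPM (log2 change 1.94, SE 0.17, adjusted p = 1.00e-07). Runx1 rose by 3.4 on the log2 scale (adjusted p = 1.80e-07, edgeR).

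Transporters of the proximal tubule fell. Of 45 tested, 2 rose and 30 fell, with a median of -0.84, and their summed level was 11180 to 14169 CPM after FAN against 19505 to 22592 CPM after vehicle. With sheet position in 3 ranges in the model, 1 rose and 15 fell (median -0.62). Slc22a2, the basolateral carrier of organic cations, stood at 295, 287, 306 and 257 CPM after FAN and 786, 763, 689 and 702 CPM after vehicle (log2 change -1.36, SE 0.18, adjusted p = 1.16e-05), and Slc47a1, which exports the same cations into urine, at 582, 622, 609 and 666 CPM against 1205, 1016, 1038 and 1067 CPM (log2 change -0.8, SE 0.14, adjusted p = 1.67e-04). Slc9a3, the exchanger of sodium and protons, stood at 57.6, 44.6, 34.6 and 54.7 CPM against 132, 101.9, 93.2 and 99.8 CPM (log2 change -1.16, SE 0.22, adjusted p = 3.52e-04). The water channel Aqp1 stood at 278, 273, 294 and 497 CPM against 604, 786, 930.03 and 786 CPM (log2 change -1.21, SE 0.22, adjusted p = 2.54e-04), with FAN 12 the nearest to the vehicle range. Slc13a1, the sodium-sulfate cotransporter and 1 of the 2 members that rose (chr6:24088283-24168092), went from 197 to 313 CPM to 527 to 656 CPM (log2 change 1.08, SE 0.18, adjusted p = 9.02e-05). The groups did not overlap for any of these 5 transporters.

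Of 25 brush border genes and peptidases, 1 rose and 14 fell (median -0.65), and 1 rose and 5 fell with sheet position in 3 ranges. Of 25 tubule cytochrome P450 genes, 2 rose and 11 fell (median -0.79), and 2 and 4 with the 3 ranges. Cyp2a4 stood at 785, 577, 733 and 765 CPM against 1116, 1676, 1769 and 1431 CPM (log2 change -1.07, SE 0.16, adjusted p = 3.69e-05). Cyp4a12a, whose reads may be shared with its near-identical Cyp4a neighbours, stood at 51.8 to 163 CPM against 275 to 633 CPM (log2 change -2.12, SE 0.41, adjusted p = 6.05e-04). Cyp1b1, known from mesenchymal cells as well, rose, at 82.1, 95.97, 95.3 and 73.04 CPM against 10.1, 14.1, 15.9 and 10.3 CPM (log2 change 2.78, SE 0.25, adjusted p = 1.80e-07). Hnf4a, the nuclear receptor that maintains the proximal tubule program, stood at 345, 350.3, 360.5 and 435 CPM against 725, 629, 636 and 651 CPM (log2 change -0.82, SE 0.16, adjusted p = 3.49e-04).

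Energy metabolism fell to a smaller degree. Of 34 nuclear genes for respiratory chain subunits, none rose and 16 fell (median -0.34). Sdhb of complex II stood at 416, 440.2, 434 and 483 CPM after FAN and 717, 615, 635 and 585 CPM after vehicle (log2 change -0.52, SE 0.14, adjusted p = 0.00453), and Cox5b of complex IV at 283, 272, 282 and 226 CPM against 496, 460.5, 477 and 372 CPM (log2 change -0.76, SE 0.14, adjusted p = 2.27e-04). None of the 13 transcripts of the mitochondrial genome was called in edgeR (median 0.28), with 1 at an unadjusted p under 0.05, 0 called in DESeq2 and 5 in limma. The transcript mt-Co1 had groups that did not overlap, at 80475, 81888, 65529 and 82769 CPM against 61793, 51520, 64907 and 56461 CPM (log2 change 0.4, SE 0.25, adjusted p = 0.2). Of 20 citric acid cycle genes, 12 fell and none rose (median -0.52), or 7 with sheet position in 3 ranges. Idh3g, a subunit of isocitrate dehydrogenase, stood at 217, 249.8, 259 and 267 CPM against 475, 409, 429 and 444 CPM (log2 change -0.82, SE 0.12, adjusted p = 1.91e-05).

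Of 33 genes of fatty acid oxidation and ketone metabolism, 17 fell and none rose (median -0.47), or 10 with the 3 ranges. Acsm5, a medium-chain acyl-CoA synthetase, stood at 78.2, 64.3, 47.3 and 76.3 CPM against 169, 155, 155 and 168 CPM (log2 change -1.28, SE 0.18, adjusted p = 2.20e-05). Bdh1, which interconverts ketone bodies, stood at 102.96, 106, 55.4 and 146 CPM against 195, 259.8, 259 and 248 CPM, with FAN 11 the lowest (log2 change -1.23, SE 0.23, adjusted p = 2.76e-04). Cpt1a, the gate of fatty acid entry into mitochondria, did not pass the test, at 310.1, 390.4, 371 and 419 CPM against 503, 399.8, 449.6 and 469 CPM (log2 change -0.29, SE 0.16, adjusted p = 0.148). Of 23 PPAR-alpha and fasting response genes, 2 rose and 5 fell (median -0.21), which is 30.4% called and under the share of all genes. Of 17 gluconeogenesis genes, 10 fell and 1 rose (median -0.52), and of 22 glycolysis genes, 9 fell and 4 rose (median -0.28). With the 3 ranges these counts were 3 and 1, and 4 and 4. Gapdh stood at 878, 1081, 1138 and 1101 CPM against 2794, 2737, 2513 and 2387 CPM (log2 change -1.31, SE 0.19, adjusted p = 2.35e-05), while the hexokinase of leukocytes, Hk3, rose by 2.46 on the log2 scale (adjusted p = 1.85e-05, edgeR). In lipid synthesis, 11 of 24 cholesterol genes fell and 1 rose (median -0.41), and 10 of 22 fatty acid synthesis genes fell and 1 rose (median -0.80). Mvd stood at 23.6, 24.2, 23.1 and 27.97 CPM against 60.6, 64.6, 63.1 and 40.9 CPM (log2 change -1.22, SE 0.20, adjusted p = 1.14e-04), and the carbohydrate-responsive factor Mlxipl at 109, 112, 127 and 113 CPM against 249, 229, 214 and 164 CPM (log2 change -0.9, SE 0.14, adjusted p = 3.92e-05). Fasn, the fatty acid synthase, varied more between vehicle libraries than between groups, at 22.5, 21.3, 19.9 and 25.3 CPM against 27.8, 96.5, 39.4 and 13.6 CPM (log2 change -1.01, SE 0.56, adjusted p = 0.163).

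Amino acid enzymes gave the largest share of falls among the metabolic lists. Of 33 genes of amino acid breakdown and arginine-creatine synthesis, 22 fell and 1 rose (median -0.66), or 14 and 0 with the 3 ranges. Cbs, the entry enzyme of transsulfuration, stood at 59.9, 58.3, 40.2 and 76.8 CPM against 179.7, 213, 206 and 178 CPM (log2 change -1.73, SE 0.22, adjusted p = 7.95e-06), and Hgd of tyrosine breakdown at 285, 266, 303.99 and 334 CPM against 641, 545, 627 and 657 CPM (log2 change -1.05, SE 0.15, adjusted p = 1.77e-05). Acy1, an aminoacylase (chr9:106432981-106438319), stood at 97.01, 96.9, 97.5 and 119 CPM against 268, 309, 307 and 283 CPM (log2 change -1.51, SE 0.12, adjusted p = 4.74e-08). Of 15 genes from tryptophan to NAD, 9 fell and 2 rose (median -0.59). Haao and Qprt, which act in turn on the way to NAD, fell by 2.61-fold and 2.25-fold (log2 -1.39 and -1.17, adjusted p = 8.95e-07 and 1.50e-05 in edgeR). Nnmt, which methylates nicotinamide, rose, at 5.41, 5.34, 8.53 and 3.53 CPM against 0.5504, 1.84, 0.9895 and 0.978 CPM (log2 change 2.37, SE 0.35, adjusted p = 3.46e-05).

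**Figure D3:**
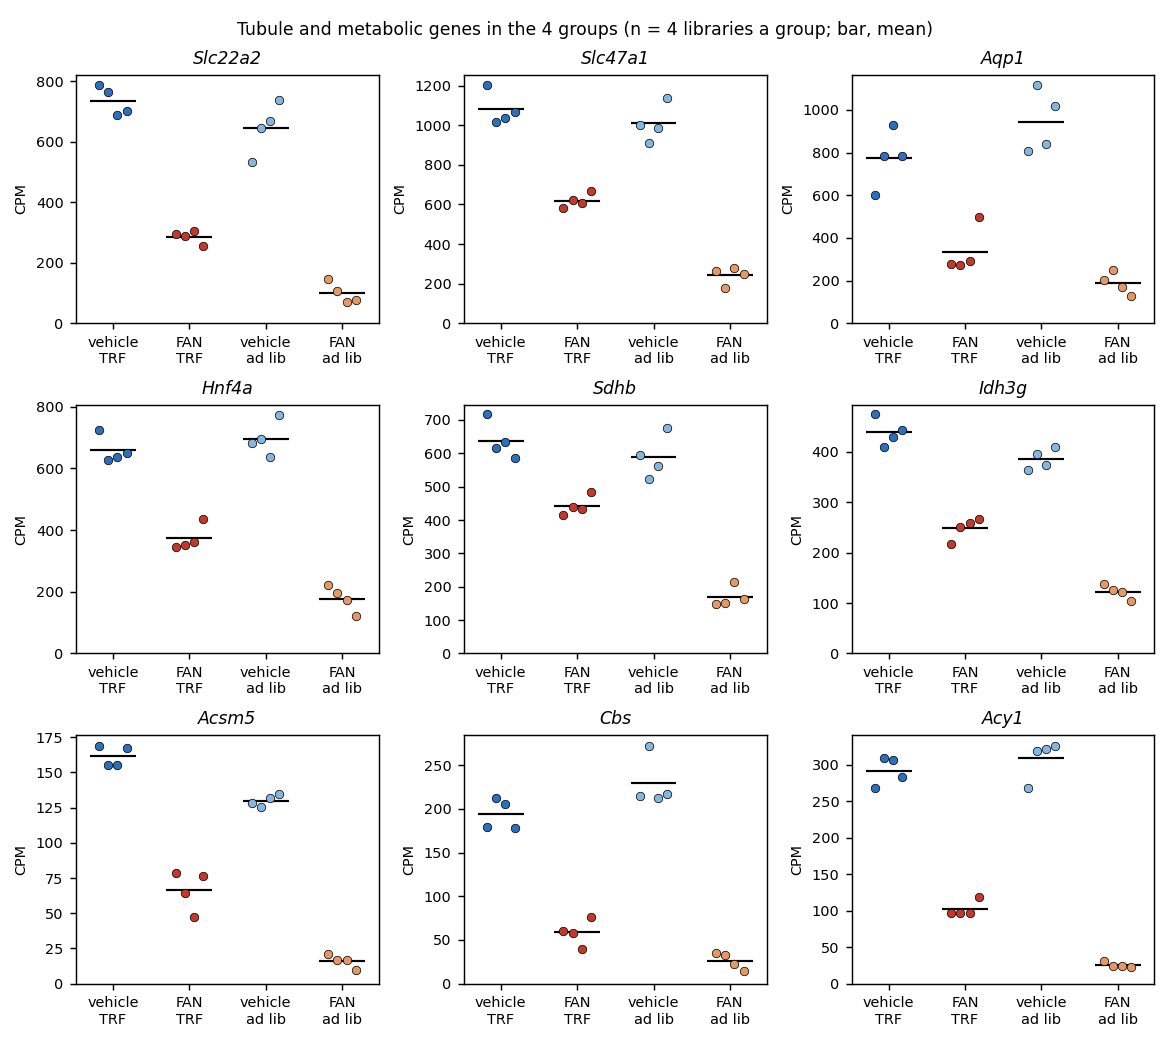
CPM (linear axis from 0) of 9 tubule and metabolic genes in the 4 groups, with each library as a point and the group mean as a bar. In each of the 9 panels the FAN mean under time-restricted feeding lies between the vehicle means and the FAN mean under ad libitum feeding. All 9 had a smaller fall under time-restricted feeding by the interaction test described below, so their choice largely set this order. Aqp1, Cbs, Hnf4a and Idh3g lost that interaction call with library size scaling.

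Past the proximal tubule the lists moved less. Their shares called are to be read against 43.5% of all genes in either direction and 19.0% fallen. Of 16 thick ascending limb genes, 5 fell and 2 rose (median -0.42), close to the share of all genes, and the falls numbered 8 with DESeq2's size factors and 3 with the 3 sheet ranges. Bsnd, a chloride channel subunit, stood at 22.2, 27.6, 25.7 and 48.1 CPM against 57.2, 70.96, 67.02 and 64.1 CPM (log2 change -1.08, SE 0.22, adjusted p = 6.04e-04), and Ppp1r1a, a phosphatase inhibitor of this segment, at 87.7, 111, 79.5 and 115 CPM against 234, 281, 328 and 245 CPM (log2 change -1.47, SE 0.18, adjusted p = 3.78e-06). Of 17 distal convoluted tubule genes, 5 rose and 2 fell (41.2% called, median -0.07). Trpm6, the magnesium channel, stood at 35.4, 36.04, 41.4 and 21.7 CPM against 14.4, 14.7, 18.6 and 15.2 CPM (log2 change 1.1, SE 0.19, adjusted p = 1.60e-04). Of 16 principal cell genes, 5 fell and none rose (31.2% called, median -0.43), and none fell with the 3 sheet ranges. Aqp2, their water channel, overlapped between groups, at 45.1, 52.3, 31.9 and 105 CPM against 46.6, 221, 77.004 and 64.6 CPM (log2 change -0.82, SE 0.64, adjusted p = 0.329). Of 18 intercalated cell genes, 7 fell and none rose (38.9% called, median -0.51), or 3 with the 3 ranges. The anion exchanger Slc4a1 stood at 10.04, 7.44, 8.06 and 12.5 CPM against 30.9, 33.99, 44.3 and 37.7 CPM (log2 change -1.97, SE 0.29, adjusted p = 3.90e-05), but it is also a gene of red cells.

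Podocyte and endothelial genes rose rather than fell. Of 19 podocyte genes, 14 rose and 1 fell (median 1.01), or 9 and 1 in the earliest sheet range alone. Tcf21, a transcription factor shared by podocytes and stromal cells, stood at 28.1, 27.7, 43.03 and 23.9 CPM against 4.87, 7.69, 6.57 and 5.46 CPM (log2 change 2.31, SE 0.27, adjusted p = 2.59e-06). Synpo, the podocyte's actin-binding synaptopodin, stood at 28.6, 35.04, 47.9 and 23.2 CPM against 14.3, 11.6, 17.9 and 12.7 CPM (log2 change 1.26, SE 0.24, adjusted p = 4.65e-04). Of 25 endothelial genes, 14 rose and none fell (median 0.65), but 5 with the 3 sheet ranges, 2 in the earliest range alone and 8 without FAN 11. Flt1, a receptor of vascular endothelial growth factor, stood at 44.4, 54.4, 56.1 and 64.95 CPM against 24.9, 23.996, 32.97 and 26.8 CPM (log2 change 1.01, SE 0.17, adjusted p = 1.10e-04), with FAN 12 the highest. Icam1, an adhesion molecule of activated endothelium and tubule, stood at 24.4, 34.03, 27.3 and 25.3 CPM against 8.21, 11.3, 7.65 and 7.903 CPM (log2 change 1.66, SE 0.22, adjusted p = 8.41e-06).

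Red cell genes fell: of 8 tested, 7 fell and 1 rose, with a median of -3.30. The summed level of the 9 list members found in the count table was 87.7 to 126 CPM after FAN against 251 to 626 CPM after vehicle. Hbb-bs stood at 24.05, 14.2, 29.98 and 6.505 CPM against 182, 300.2, 228 and 88.97 CPM (log2 change -3.4, SE 0.85, adjusted p = 0.00578), and its reads may be shared with the near-identical Hbb-bt. The call was lost in the earliest sheet range alone (adjusted p = 0.197, edgeR). Of 13 adipocyte genes, 2 fell and none rose (15.4% called, under the share of all genes). The median difference of that list from vehicle was 0.08, -2.60, -2.85 and -0.21 in FAN 6, 10, 11 and 12, so the FAN libraries split within the group. Of 10 smooth muscle and urothelium genes, 1 fell, and neither of 2 adrenal genes was called in edgeR or DESeq2 (0 at an unadjusted p under 0.05, and 1 called in limma).

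Clock genes were called in both directions. Of 17 core clock genes, 9 rose and 5 fell (82.4% called, against 43.5% of all genes), and of 16 genes of the repressor loops and output, 4 rose and 8 fell (75.0%). With sheet position in 3 ranges, the core clock counts were 6 and 1. Sequences are shown for output genes that carry a clock motif within 150 bases before the start and were called, in RefSeq windows on GRCm38.p6 with the motif in capitals. The E-box (CACGTG) is bound by the Arntl-Clock pair, and the ROR-element (TAGGTCA, or TGACCTA on the other strand) by Ror activators and Nr1d repressors. The windows lie at chr3:95882229-95882378 (minus strand), chr15:81802523-81802672 (plus, 1 of its 2 listed starts), chr13:74121263-74121412 (plus) and chr13:52981040-52981189 (minus).
Ciart: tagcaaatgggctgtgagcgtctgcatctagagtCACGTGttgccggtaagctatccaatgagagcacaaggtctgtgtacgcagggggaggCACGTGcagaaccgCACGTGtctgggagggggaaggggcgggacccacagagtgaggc
Tef: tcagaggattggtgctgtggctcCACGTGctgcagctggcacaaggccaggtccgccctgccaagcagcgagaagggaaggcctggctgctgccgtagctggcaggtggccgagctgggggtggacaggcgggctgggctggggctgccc
Slc9a3: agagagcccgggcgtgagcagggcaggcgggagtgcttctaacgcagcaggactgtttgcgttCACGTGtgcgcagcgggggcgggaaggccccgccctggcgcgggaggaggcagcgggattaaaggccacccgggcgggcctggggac
Nfil3: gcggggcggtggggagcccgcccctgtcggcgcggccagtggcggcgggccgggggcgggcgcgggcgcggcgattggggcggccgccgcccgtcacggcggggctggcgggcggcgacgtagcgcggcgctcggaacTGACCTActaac
The E-box occurred within 250 bases before the start in 6 of the 14 output genes with a window (42.9%). It occurred in 2 of the 13 core clock genes with a window (15.4%) and in 6.86% of all genes. Of the 6 output genes, 4 fell and 0 rose. The 2 core clock genes were Cry1, which rose, and Per1, which was not called. The ROR-element occurred in 1 of the 14 output genes, which is Nfil3, in none of the 13 core clock genes and in 2.55% of all genes.

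The output genes with an E-box shown above fell, and their groups did not overlap. Ciart, a repressor of the clock, stood at 7.16, 2.0996, 2.48 and 1.77 CPM after FAN and 49.2, 31.4, 33.6 and 23.95 CPM after vehicle, a 9.9005-fold fall in which FAN 6 kept the most. Tef, a transcription factor that binds the D-box, stood at 215, 164, 162 and 181 CPM against 507, 458, 499 and 481 CPM (log2 change -1.43, SE 0.14, adjusted p = 2.47e-07). Its relative Dbp was at 14.3, 7.26, 6.33 and 5.297 CPM against 40.4, 46.7, 29.1 and 30.9 CPM (log2 change -2.13, SE 0.35, adjusted p = 1.17e-04), again with FAN 6 the highest of its group. Cipc, a repressor of Clock, changed less, at 30.97, 35.9, 33.01 and 36.1 CPM against 49.9, 46.4, 47.7 and 48.6 CPM (log2 change -0.5, SE 0.10, adjusted p = 5.77e-04), and Usp2, a deubiquitinase with rhythmic expression, at 90.5, 74.1, 70.3 and 71.1 CPM against 200.7, 183, 201.1 and 130.03 CPM (log2 change -1.22, SE 0.24, adjusted p = 5.98e-04). Nfil3, which opposes Dbp and Tef at the D-box, moved the other way, at 10.4, 8.57, 11.99 and 6.23 CPM after FAN and 3.51, 2.45, 3.28 and 2.85 CPM after vehicle (log2 change 1.63, SE 0.22, adjusted p = 1.35e-05). Noct, a rhythmic phosphatase, rose as well, with FAN 6 the highest, at 103.1, 85.2, 65.9 and 47.3 CPM against 35.2, 33.3, 42.4 and 36.4 CPM (log2 change 1.04, SE 0.25, adjusted p = 0.00257).

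In the core clock, the activators were higher after FAN. Arntl stood at 2.996, 4.72, 5.03 and 5.95 CPM against 0.847, 2.16, 0.7197 and 1.47 CPM (log2 change 1.83, SE 0.33, adjusted p = 2.35e-04), and Npas2 at 1.71, 2.71, 2.08 and 2.32 CPM against 0.847, 0.815, 0.495 and 0.489 CPM (log2 change 1.69, SE 0.27, adjusted p = 8.05e-05). Both calls were lost in the earliest sheet range alone, and FAN 6, the single FAN library of that range, was the lowest of its group for each. Clock changed by 0.57 (adjusted p = 0.0017, edgeR), and this call was lost with the 3 sheet ranges. Rora, an activator at the ROR-element, stood at 82.3, 70.2, 59.7 and 86.1 CPM against 52.1, 34.3, 49.2 and 55.2 CPM (log2 change 0.65, SE 0.15, adjusted p = 0.00186), and Nr1d1, the repressor at the same element, at 8.13, 5.21, 4.99 and 4.37 CPM against 18.97, 34.5, 15.9 and 10.998 CPM (log2 change -1.82, SE 0.45, adjusted p = 0.00448), a call that was also lost with the 3 ranges. The repressor Cry1 rose, at 11.6, 13.4, 13.2 and 11.3 CPM against 5.21, 3.83, 7.15 and 7.74 CPM (log2 change 1.07, SE 0.20, adjusted p = 2.91e-04), while Per3 fell, at 36.7, 31.7, 33.2 and 31.9 CPM against 57.1, 46.3, 53.8 and 51.7 CPM (log2 change -0.65, SE 0.16, adjusted p = 0.00267), a call that was lost in the earliest range alone and with the 3 ranges. The hour of collection is not given in the sources used here, so a shift in phase and a change in mean level cannot be told apart.

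**Figure D4:**
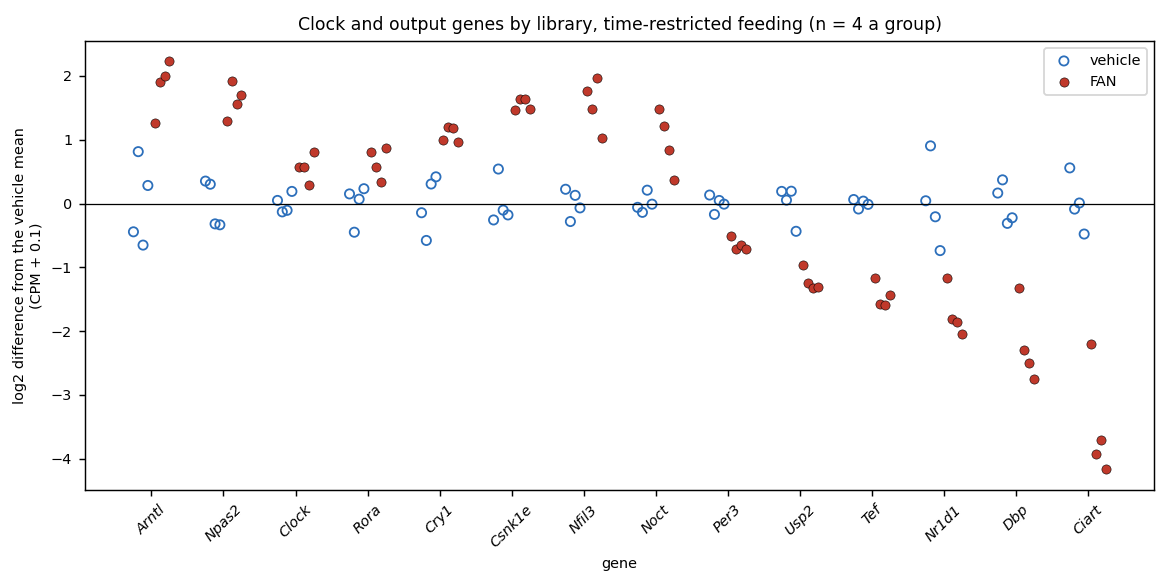
Log2 difference of 14 clock and output genes from the vehicle mean under time-restricted feeding (vertical axis, log2 of CPM plus 0.1), with 1 point for each of the 4 FAN libraries (filled) and the 4 vehicle libraries (open). Arntl, Npas2, Clock, Rora, Cry1, Csnk1e, Nfil3 and Noct lie above the vehicle points, and Ciart, Dbp, Tef, Usp2, Nr1d1 and Per3 below them.

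A few chaperones of the endoplasmic reticulum rose while most of their list was not called. Of 24 unfolded protein response genes, 5 rose and 1 fell (median 0.06), which is 25% called and under the 43.5% of all genes. Hspa5, the main chaperone of the endoplasmic reticulum, stood at 1080, 804, 782 and 819 CPM after FAN and 458, 491, 479 and 635 CPM after vehicle (log2 change 0.76, SE 0.22, adjusted p = 0.00886), and Sdf2l1, its partner, at 10.5, 10.3, 9.98 and 9.39 CPM against 3.47, 4.32, 3.96 and 2.77 CPM (log2 change 1.46, SE 0.29, adjusted p = 6.20e-04). Of 17 heat shock genes, 4 rose and 1 fell (median 0.05), which is 29.4% called and also under that share. Hsp90aa1 stood at 489, 431, 487 and 551 CPM against 249, 266, 264 and 341 CPM (log2 change 0.81, SE 0.23, adjusted p = 0.00907). Of 24 NRF2 targets, 11 fell and 1 rose (median -0.38), while Nfe2l2, which encodes NRF2 itself, rose, at 144, 121, 118 and 138 CPM against 91.8, 80.6, 84.02 and 97.6 CPM (log2 change 0.56, SE 0.10, adjusted p = 2.18e-04). The NRF2 falls numbered 6 with the 3 sheet ranges and 7 without FAN 10 or without vehicle 2. Of 18 glucocorticoid targets, 8 rose and 1 fell (median 0.40), or 5 and 1 with the 3 ranges.

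Folate genes were examined because the column names carry the word folic. Of 25 genes of folate uptake and one-carbon metabolism, 11 fell and 3 rose (median -0.09). The 3 uptake genes fell: the receptor Folr1 stood at 159, 162, 174 and 221 CPM against 387, 279, 333 and 342 CPM (log2 change -0.91, SE 0.18, adjusted p = 5.43e-04), the reduced folate carrier Slc19a1 at 39.6, 48.7, 47.98 and 43.9 CPM against 81.2, 86.98, 77.7 and 55.6 CPM (log2 change -0.74, SE 0.16, adjusted p = 9.46e-04), and the proton-coupled carrier Slc46a1 at 18.2, 19.5, 21.3 and 19.98 CPM against 47.4, 54.5, 50.96 and 35.5 CPM (log2 change -1.26, SE 0.20, adjusted p = 5.57e-05). The enzyme pair that adds and removes the glutamate tail moved in opposite directions. Fpgs, which adds it and so keeps folate in the cell, fell, at 25.9, 38.5, 33.3 and 29.5 CPM against 69.5, 82.3, 68.4 and 45.3 CPM (log2 change -1.06, SE 0.16, adjusted p = 4.96e-05), and Ggh, which removes it, rose, at 38.5, 41.1, 34.9 and 42.8 CPM against 21.4, 16.8, 21.5 and 25.4 CPM (log2 change 0.89, SE 0.19, adjusted p = 0.0012). Of these 5 genes, each had groups that did not overlap.

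Vasoactive and hormone genes were mixed. Of 17 renal endocrine and renin-angiotensin genes, 6 rose and 6 fell, or 4 and 1 with the 3 sheet ranges. Edn1, the endothelin ligand, stood at 18.2, 14.4, 14.8 and 4.09 CPM against 1.35, 1.17, 1.03 and 1.47 CPM (log2 change 3.39, SE 0.40, adjusted p = 4.28e-06), and its receptor Ednra at 8.64, 5.69, 9.43 and 3.16 CPM against 1.44, 1.28, 1.799 and 1.14 CPM (log2 change 2.25, SE 0.30, adjusted p = 1.18e-05). Pth1r, the receptor of parathyroid hormone in the tubule, fell, at 238, 232, 316 and 266 CPM against 466, 575, 498 and 341 CPM (log2 change -0.84, SE 0.18, adjusted p = 0.00104). Of 36 Wnt, hedgehog and gp130 ligands and receptors, 20 rose and 1 fell (median 0.69). Among gp130 genes, the ligand Lif stood at 13.7, 10.1, 15.5 and 2.79 CPM against 0.169, 0.3899, 0.135 and 0.0815 CPM (log2 change 5.6, SE 0.63, adjusted p = 3.74e-06), the receptor Osmr at 83.9, 80.1, 109 and 50.4 CPM against 5.46, 8.4002, 8.32 and 6.76 CPM (log2 change 3.48, SE 0.21, adjusted p = 4.65e-09), and the feedback inhibitor Socs3 at 38.9, 28.5, 45.4 and 17.7 CPM against 0.677, 1.31, 1.08 and 0.733 CPM (log2 change 5.06, SE 0.36, adjusted p = 1.89e-08). Of 21 retinoid genes, 8 rose and 4 fell (median 0.35). Aldh1a2, which makes retinoic acid, rose 20.9-fold (adjusted p = 1.32e-08, edgeR), while Dhrs3, which turns retinal back to retinol, fell, at 97.5, 102.1, 147 and 111 CPM against 163, 205, 220.3 and 164 CPM (log2 change -0.72, SE 0.16, adjusted p = 0.00131).

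Lysosomal genes showed no common direction. Of 31 tested, 8 rose and 6 fell, or 6 and 1 with the 3 sheet ranges. Ctsk, the collagen-degrading cathepsin, stood at 25.3, 25.2, 32.7 and 19.4 CPM against 2.71, 3.37, 3.69 and 3.01 CPM (log2 change 3.0, SE 0.20, adjusted p = 6.63e-09), while Glb1, a galactosidase, fell, at 123, 131, 130.5 and 124 CPM against 268, 276, 268 and 259 CPM (log2 change -1.07, SE 0.17, adjusted p = 5.94e-05). Of 29 nephron and repair transcription factors, 8 rose and 6 fell (median 0.06). Cebpd rose by 2.73 and Esrra, an orphan receptor of mitochondrial genes, fell from 57.6 to 86.3 CPM to 46.9 to 52.3 CPM (adjusted p = 7.04e-06 and 4.02e-04, edgeR).

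The FAN effect was then set against that in the 8 ad libitum libraries, which share no library with this comparison. Ad libitum, FAN changed 10770 genes (60.7% of those tested), 5691 higher and 5079 lower. Of the genes that rose under time-restricted feeding, 3786 (87.05%) also rose ad libitum, which is 66.53% of the ad libitum rises. Of those that fell, 2932 (87.0%) also fell ad libitum, or 57.73% of the ad libitum falls. The difference between the 2 effects passed the interaction test for 1625 genes (9.16%), with the FAN change higher under time-restricted feeding for 1376 (7.76%) and lower for 249 (1.40%). Of the 1376, 1352 had fallen ad libitum, and of the 249, 245 had risen ad libitum. This split depended on the scaling. With library size in place of TMM, 504 genes were higher and 6127 lower and the median difference of all genes moved from 0.021 to -0.572. TMM factors were 1.32 to 1.53 in the FAN ad libitum libraries and 0.82 to 0.98 in the 8 time-restricted ones. Mitochondrial transcripts took 6.94% to 14.8% of counts in the FAN ad libitum libraries, which split by sheet range. The share was 7.29% and 6.94% in ad libitum FAN 6 and 7 of the earliest range. It was 14.8% and 12.1% in ad libitum FAN 10 and 12 of the last range.

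Tubule metabolism held most of the interaction calls made for the lists. The FAN change was higher under time-restricted feeding, that is the fall was smaller, for 24 of 45 proximal tubule transport genes, 30 of 34 nuclear respiratory chain genes, 24 of 33 fatty acid oxidation genes and 23 of 33 amino acid genes, and lower for none of them. With library size scaling these became 13 higher and 2 lower, 5 and 0, 10 and 1, and 11 and 1. All 13 mitochondrial transcripts were higher by this test under both scalings. None of them had been called under time-restricted feeding, and all 13 had fallen ad libitum with a median of -1.84. For mt-Co1, the log2 change was 0.4 under time-restricted and -1.27 under ad libitum feeding (difference 1.68, SE 0.35, adjusted p = 0.00535).

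The genes with the smallest interaction p fell under both regimens by unequal amounts. Acy1 averaged 102.6 ± 10.95 CPM after FAN and 292 ± 19.8 CPM after vehicle under time-restricted feeding (SD, n = 4). Ad libitum it averaged 25.6 ± 3.52 and 309 ± 26.9 CPM (SD, n = 4), so the vehicle levels were near each other and the FAN levels were not (difference 2.08, SE 0.17, adjusted p = 3.24e-06, edgeR). Sugct, a CoA transferase of glutarate breakdown, changed by -0.99 under time-restricted and by -2.92 under ad libitum feeding as log2 changes (difference 1.92, SE 0.18, adjusted p = 1.09e-05, edgeR), and Cmbl, a hydrolase, changed by -0.7 and -2.65 (difference 1.94, SE 0.18, adjusted p = 9.23e-06, edgeR). Slc47a1 and Hnf4a were of the same kind, with differences of 1.24 and 1.15 (adjusted p = 5.76e-04 and 0.00247, edgeR). Both of these calls were lost in the earliest sheet range alone, and that of Hnf4a with library size scaling (0.55). The folate uptake genes did not pass the interaction test (0.74 for Folr1, 0.45 for Slc19a1 and 0.64 for Slc46a1, adjusted p = 0.0745, 0.229 and 0.158 in edgeR), and the value for Slc19a1 was -0.15 with library size scaling.

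On the other side, 3 of 22 collagens and 3 of 32 matrix glycoproteins were called lower and none higher, beside 1.40% of all genes called lower. Their median differences were -0.96 and -0.63. The lower calls became 13 and 20 with library size scaling and 13 and 14 in limma, where 2 glycoproteins were higher. With the 3 sheet ranges they were 2 and 2, and 1 glycoprotein was higher. Pxdn, a peroxidase that cross-links basement membrane collagen, rose under both regimens and by less under time-restricted feeding, at 40.4 to 62.8 CPM after FAN against 21.8 to 25.8 CPM after vehicle (log2 change 1.17, and 2.39 ad libitum; difference -1.22, SE 0.21, adjusted p = 0.00114, edgeR). Nrep and Golm1 showed differences of -1.49 and -1.41 (adjusted p = 0.00294 and 0.00597, edgeR), and both calls were lost in the earliest sheet range alone. Macrophage and interferon lists rose to like medians under both regimens, 3.38 and 3.44 for the first and 1.43 and 1.53 for the second, with 2 lower interaction calls among 36 macrophage genes and none among 36 interferon genes. Of the interferon genes, 5 had an unadjusted interaction p under 0.05, none were called in DESeq2 and 7 in limma. With library size scaling the macrophage and interferon counts became 12 and 16 lower.

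**Figure D5:**
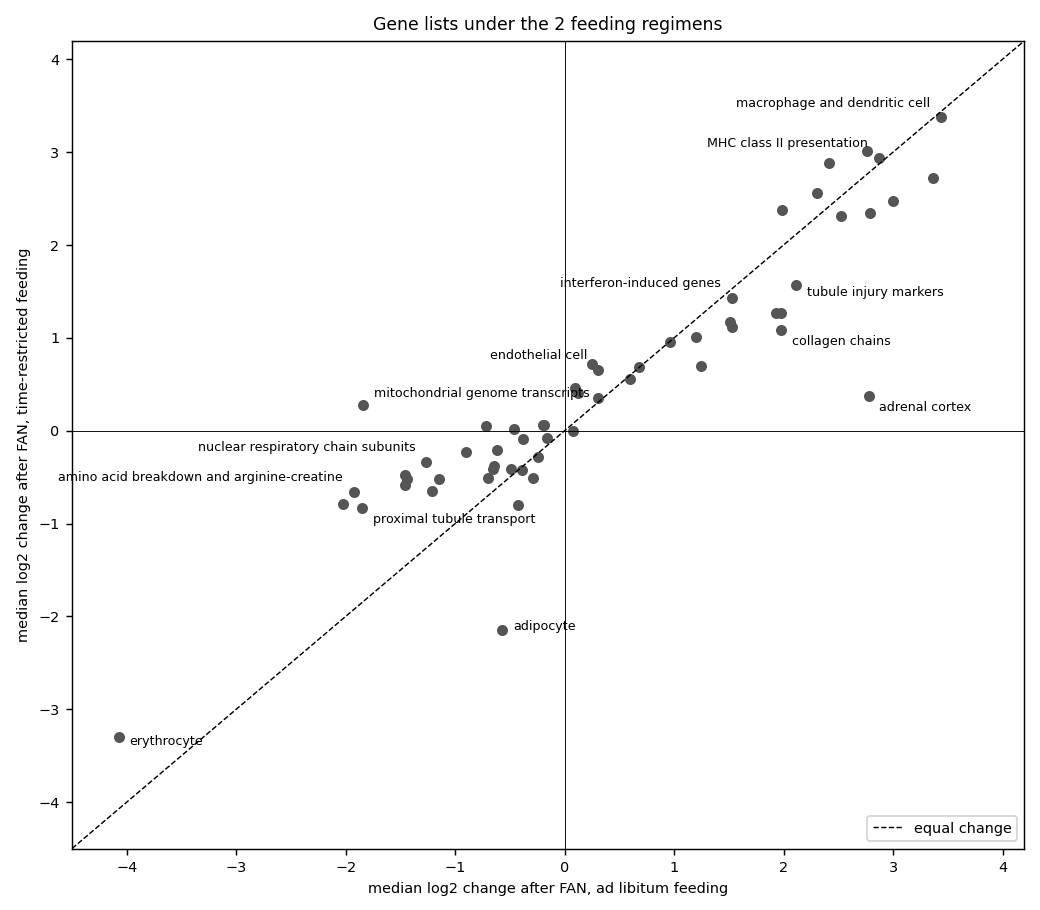
Median log2 change after FAN of each of the 57 gene lists under time-restricted feeding (vertical axis) against that under ad libitum feeding (horizontal axis), 1 point for each list, with the line of equal change dashed. The proximal tubule lists and most metabolic lists lie above the line at the lower left. Fatty acid synthesis and glycolysis lie below the line and the mitochondrial genome transcripts at the upper left, and macrophage, interferon and MHC lists lie near it.

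Calls in 1 regimen alone were few once the difference was tested. Of 991 genes called under time-restricted feeding and not ad libitum, 23 passed the interaction test. Sap130, a subunit of a histone deacetylase complex, was at 21.2, 23.4, 23.8 and 21.3 CPM after FAN and 37.2, 39.1, 31.9 and 35.6 CPM after vehicle (log2 change -0.68, SE 0.12, adjusted p = 2.14e-04), with an ad libitum change of -0.06 (difference -0.62, SE 0.17, adjusted p = 0.0277, edgeR). This interaction call was lost with no filter on low counts, with the 3 sheet ranges, and without any 1 of FAN 6 or 12 or vehicle 1 or 2 of this comparison or FAN 6 or 7 or vehicle 1 or 3 ad libitum. Tek, the angiopoietin receptor of endothelium, stood at 30.8, 38.5, 35.9 and 52.4 CPM against 18.2, 22.3, 23.5 and 20.7 CPM (log2 change 0.89, SE 0.16, adjusted p = 2.44e-04), with 0.08 ad libitum (difference 0.81, SE 0.23, adjusted p = 0.0293, edgeR). Both calls of Tek were lost in the earliest sheet range alone, and the interaction call also with library size scaling and without any 1 of FAN 12 or vehicle 1 of this comparison or FAN 6 or 7 or vehicle 2 ad libitum. Rises under time-restricted feeding that were falls ad libitum numbered 7, and the reverse 3, and all 10 passed the interaction test. Ttr, the thyroid hormone carrier transthyretin, was at 393, 462, 276 and 267 CPM after FAN and 263, 145, 221 and 233 CPM after vehicle (log2 change 0.7, SE 0.22, adjusted p = 0.0148), against a change of -0.61 ad libitum. The interaction call of Ttr was lost with library size scaling (0.73) and in the earliest sheet range alone (1.5). The call of Ttr under time-restricted feeding was lost in the earliest sheet range, with the 3 ranges and without FAN 10 or vehicle 2.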

How the data were processed

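Raw read counts per Ensembl gene were deposited by the authors as 1 table for 16 mRNA libraries of mouse kidney (4 a group). The tools listed per the submitters' processing notes, without roles, are STAR (2.5.3a), edgeR (3.26.7) and FastQC (0.11.5), and the build is mm10. The counting tool, its strand setting and the annotation are not given in the sources used here, so reads of overlapping or antisense genes cannot be told apart. Totals were 12450812 to 31699747 counts in the 8 time-restricted libraries, which sets the counting error of low genes. Every replicate pair differed beyond sampling noise (chi-square over degrees of freedom from 18.4 to 155), so each library was counted once. In the FAN ad libitum group this ratio was 20.7 and 26.7 for pairs within a sheet range. For pairs across sheet ranges of that group it was 146 to 155.

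Genes were kept by filterByExpr (minimum count 10), scaled by TMM and fitted in edgeR 4.0.16 (R 4.3.3) with robust quasi-likelihood over all 16 libraries as 4 groups, with contrasts for FAN under each regimen and for the difference between them. P-values were adjusted by Benjamini-Hochberg over all 17731 genes, with a threshold of 0.05. limma 3.58.1 (voom), DESeq2 1.42.0, other scalings, filters, sheet position terms and leaving out each library were alternatives. The fit was tested on simulated data with known changes. The members and the 57 gene lists were chosen with earlier results of these data known. The text names genes from the 15 largest rises and falls that averaged at least 5 CPM with groups that did not overlap, the 5 smallest p and first 3 entries of each list, and the genes with the smallest interaction p, opposite calls or calls in 1 regimen. Other list members are named where their family is described, and Cxcl3 and Hbb-bt were named after their values were seen.

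Gene positions are from GENCODE M21 on GRCm38, matched by Ensembl ID, and promoters from RefSeq on GRCm38.p6, matched by symbol. In the 250 bases before each start, 14 motifs were searched on both strands, overlapping matches included. Besides the E-box, ROR-element, interferon-element, kappaB and CCAAT motifs reported with the genes, these were the D-box TTATGTAA (1 of 13 core clock and 0 of 14 output genes, 0.977% of all genes) and TTACGTAA (0 and 0, 0.118%), AP-1 TGACTCA (0 of 21 immediate early genes, 2 of 22 chemokines, 5.16%), the cAMP element TGACGTCA (2 of 21, 1.77%), the serum response motif (0 of 21, 0.0740%), HNF4 CAAAGTCCA (1 of 36 transport genes, 0.451%), HNF1 (0 of 36, 0.0111%), CHR TTTGAA (9 of 32 cell cycle genes, 18.3%) and the PPAR element (0 of 17, 0.0407%). The interferon-element was also held by 3 of 13 class I and 3 of 22 chemokine genes.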

Additional observations from a re-analysis of the deposited data

Results flagged for a closer look

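Under time-restricted feeding some genes had 1 library far from the other 3 of its group (Dixon's test at 95%, which chance meets in about 1 of 20 groups). All 152 named genes were tested in both groups, so many of the outliers below may have arisen by chance. FAN 12 was the outlying library for Acy1 (119 CPM, the highest), Aqp1 (497, the highest), Hnf4a (435, the highest), Cdh6 (12.1, the lowest), Csf1 (12.4, the lowest) and Nlrc5 (9.39, the lowest). FAN 6 stood highest for Ccnb2 (9.73 CPM), Ciart (7.16) and Hspa5 (1080), and FAN 11 stood highest for Pdgfrb (82.1) and lowest for mt-Co1 (65529). In the vehicle group, vehicle 2 stood highest for Col1a1 (15.1 CPM), Col3a1 (24.0), Csnk1e (10.5) and Icam1 (11.3), and vehicle 1 highest for Pxdn (25.8) and lowest for Gbp2 (7.66). Vehicle 3 stood highest for Csf1 (5.85 CPM) and lowest for Aldh1a2 (1.08) and Fap (0.225). Vehicle 4 stood lowest for Esrra (57.6 CPM), Mvd (40.9) and S100a8 (0).

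The FAN effect differed between the 2 feeding regimens, by the interaction term of edgeR at an adjusted p under 0.05, for the genes that follow, given as the log2 change under time-restricted minus that under ad libitum feeding. Among transport and tubule genes the difference was 1.32 for Slc22a2, 1.24 for Slc47a1, 1.12 for Aqp1, 0.86 for Pth1r, 0.87 for Ppp1r1a, 1.15 for Hnf4a and 0.61 for Esrra. Among mitochondrial and lipid genes it was 1.68 for mt-Co1, 0.99 for Cox5b, 1.28 for Sdhb, 0.84 for Idh3g, 1.72 for Acsm5, 1.29 for Bdh1 and 1.92 for Sugct. Among enzymes of amino acids, drugs and other substrates it was 2.08 for Acy1, 1.38 for Cbs, 1.94 for Cmbl, 1.85 for Cyp2a4, 2.72 for Cyp4a12a, 2.0 for Haao, 1.66 for Hgd and 2.11 for Ldc1. For Tek and Ttr it was 0.81 and 1.31. The difference was negative, so the change was lower under time-restricted feeding, for Golm1 (-1.41), Nrep (-1.49), Prom1 (-0.84), Pxdn (-1.22), Sap130 (-0.62) and Top2a (-1.26). Of these genes, Aqp1, Bdh1, Cbs, Cox5b, Esrra, Hnf4a, Idh3g, Ppp1r1a, Pth1r, Tek and Ttr lost the interaction call with library size scaling, which gave Esrra 0.01. In the earliest sheet range alone, Aqp1, Bdh1, Cyp4a12a, Esrra, Golm1, Hnf4a, Idh3g, Nrep, Ppp1r1a, Prom1, Pth1r, Slc22a2, Slc47a1, Tek, Top2a and Ttr lost it, with values that came near 0 for Prom1 (-0.05) and to -0.25 for Top2a and 0.31 for Pth1r. When each of the 16 libraries was left out in turn, the interaction call was lost in 4 for Aqp1, 5 for Tek, 8 for Sap130, 9 for Ppp1r1a, 10 for Pth1r, 11 for Esrra and 12 for Top2a.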

How the results depend on the processing

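Many named genes were picked for a small p, a large change or separated groups in the main fit, which favours a kept call. The alternatives run for single genes were all but glmTreat. Of the 147 named genes called under time-restricted feeding, 138 kept direction and call under each of these, and none reversed. The others lost their call in the earliest sheet range alone (7 genes), with sheet position in 3 ranges, an alternative chosen after seeing the data (5 genes), without FAN 10 (1) or without vehicle 2 (1). The number of genes called after FAN under time-restricted feeding was 7719. It was 4974 with sheet position in 3 ranges, 3552 (2482 higher and 1070 lower) when tested against a log2 change of 0.5 with glmTreat, and between 6693 and 7657 when each library was left out. With library size scaling 67.2% of the calls were higher, against 56.3% with TMM.

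The interaction test called 1625 genes, with 6631 under library size scaling, 5264 (3253 higher and 2011 lower) in limma, 2243 (1309 higher and 934 lower) in the earliest sheet range alone, 2180 (1590 higher and 590 lower) in DESeq2, 502 under glmTreat, and 1160 to 2371 with each library left out. The share of its calls on the higher side was 84.7%, against 7.6% with library size, 61.8% in limma, 72.9% in DESeq2 and 58.4% in the earliest range. The difference between regimens turned negative for Slc19a1 with library size (-0.15) and in the earliest range (-0.11), and for Slc46a1 in the earliest range (-0.04). The cause was not tested. Ad libitum, 10770 genes were called, with 7059 under glmTreat, 10176 to 10751 with each library left out, and 83.9% higher with library size against 52.8%. Fitting the libraries of the comparison alone does not apply to the interaction, which uses all 16. No paired analysis was possible because the FAN columns could not be matched to the FAN titles, and the numbers in the FAN columns are shared with no vehicle column. Depth limits genes near the CPM of 3 counts.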
